A study of Mus musculus and Canis lupus familiaris with 12 samples.

Results

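The genes described here are 10 components of the microRNA pathway: Drosha, Dgcr8, Xpo5, Dicer1, Tarbp2, Ago1, Ago2, Ago3, Tnrc6a and Tnrc6b. They were followed in DLM8, a mouse osteosarcoma cell line, and in Gracie, a dog osteosarcoma cell line. Both lines are labelled WT and were kept for 6 h with 50 nM omacetaxine (OMX), an alkaloid drug that stops ribosomes during elongation, or without it. Control cells are untreated in the sample labels and DMSO-treated in the treatment protocol, and are called untreated below. There were 3 libraries of poly(A)-selected RNA per line and condition, 12 in all, and each species is represented by a single cell line. Each of the 10 genes had 1 row among the 78317 genes of the mouse table and 1 among the 30424 genes of the dog table, found by its symbol regardless of case. All 10 passed the filter on low counts in both lines. They were chosen by their roles and with their OMX-against-untreated values in these same libraries known. For that comparison their values are therefore a description without a p-value.

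Primary microRNA transcripts are cropped in the nucleus by the Microprocessor, in which DROSHA is the ribonuclease and DGCR8 the RNA-binding partner. Exportin-5, the product of XPO5, carries the resulting hairpins to the cytoplasm together with the GTPase RAN, and DICER1, helped by TARBP2, cuts them to the mature duplex. A strand is loaded into an Argonaute protein, of which AGO2 is the slicing member, and the TNRC6 (GW182) scaffolds bring in the CCR4-NOT and PAN2-PAN3 deadenylases that shorten the poly(A) tail of the target. Loss of a DICER1 allele is known to predispose to tumours in people, and in mice DICER1 is needed for bone-forming cells to mature.

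Library totals ran from 9099313 to 11392715 counts in mouse and from 2385102 to 3381831 in dog, so a given CPM (counts scaled to library size with TMM factors) rests on fewer counts in Gracie. Even numbers made up 67.7% to 73.7% of the nonzero counts in the 12 libraries, as can arise when both mates of a read pair are counted apart. Whether they were was not tested, so the counts printed below may exceed the number of RNA fragments. Refits with halved counts are among the alternatives given at the end. In DLM8, 10 of 11 osteoblast-lineage markers passed the filter, Col1a1, Alpl, Runx2 and Sp7 among them. With OMX, 0 of these 10 were called higher and 4 lower (edgeR, adjusted p under 0.05). The 4 were Col1a1 (log2 fold change -1.46), Col1a2 (-1.52), Alpl (-1.56) and Spp1 (-2.01). In Gracie 5 of 9 passed, with RUNX2 at 15.5 to 28.7 CPM. SP7 went from 5.95 ± 0.43 to 30.5 ± 1.32 CPM (SD, n = 3) and was called higher (log2 fold change 2.35). The other 4 were not called. ALPL held 0 counts in the 3 untreated libraries and 5, 3 and 4 counts with OMX. SPP1 was at most 0.605 CPM in any library, so ALPL and SPP1 were absent or near 0. Markers of other cell types were low, and some were higher with OMX. In DLM8 the summed level of 4 leukocyte markers was 0.0928 to 0.232 CPM without OMX and 0.944 to 2.08 CPM with it, mostly Cd68 (0.755 to 1.87 CPM with OMX), while Ptprc was at most 0.189 CPM and Adgre1 was at 0. The sum of 4 epithelial markers was at most 0.232 CPM without OMX and 1.28 CPM with it, with Epcam and Krt18 at 0. The sum of 3 endothelial markers was at most 0.0928 CPM without OMX and 1.38 to 5.50 CPM with it, nearly all Cdh5, and Kdr was at 0. In Gracie the leukocyte sum was 0.774 to 4.26 CPM without OMX and 1.23 to 4.84 CPM with it, with PTPRC and CD3E at 0, and the 3 epithelial rows were at 0. The endothelial sum was 2.32 to 3.11 CPM without OMX and 4.24 to 12.4 CPM with it, PECAM1 reaching 7.17 CPM. The part of these rows in the results was not tested. The row of mt-Nd6, the protein-coding gene of the light mitochondrial strand, held 49.9 to 94.1 times the median counts of the 12 remaining mitochondrial coding rows in DLM8. The 13 mitochondrial rows of the dog table held 0 counts, so this comparison could not be made in Gracie. The strand setting of the counting is not given in the sources used here. A value below is thus that of the gene's own row, and whether it reports the gene's mRNA or RNA of the opposite strand was not tested. CPM are shares of a library, and fewer cells expressing a gene and less of its RNA per cell cannot be told apart in them.

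The products that this machinery makes were not measured, since poly(A) libraries do not count mature microRNAs. The sequences that bear on the rows below are those of microRNAs encoded within genes that differed after OMX. Of the listed host genes, 16 were called in at least 1 line. For 14 of these, 37 mature mouse arms with 35 different seeds were found. Not every called host was searched, and some hairpins were found without their other arm, so these totals are not complete. Shown are arms of hosts called lower or higher, and of pairs that share a seed. They are mouse sequences from RefSeq (build GRCm38.p6), 5′ to 3′, with the seed (bases 2 to 8) in capitals. The arms of Copz1 and Copz2 have the seed CAGUGCA in common, and the 2 let-7 family arms of Huwe1 have GAGGUAG in common. The let-7 family and miR-103 are known to target DICER1 mRNA in human cells.
miR-335-5p (Mest): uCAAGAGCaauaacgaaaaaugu
miR-103-3p (Pank3): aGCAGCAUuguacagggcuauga
miR-148b-3p (Copz1): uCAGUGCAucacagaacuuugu
miR-152-3p (Copz2): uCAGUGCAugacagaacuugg
let-7f-5p (Huwe1): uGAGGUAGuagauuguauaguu
miR-98-5p (Huwe1): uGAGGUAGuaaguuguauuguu
miR-455-5p (Col27a1): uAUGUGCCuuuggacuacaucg
miR-33-5p (Srebf2): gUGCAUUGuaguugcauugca
miR-218-5p (Slit3): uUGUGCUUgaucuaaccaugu

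DICER1 was the member that stood farthest from its untreated level, and it did so in the dog line. In Gracie the DICER1 row (ENSCAFG00000017701) held 208, 139 and 138 counts in the untreated libraries and 10, 20 and 25 counts in the OMX libraries. Scaled, this was 80.5, 54.1 and 53.4 CPM without OMX and 4.11, 6.05 and 8.15 CPM with it. The groups lay far apart, with the highest OMX library well below the lowest untreated library. The mean went from 62.7 ± 15.5 to 6.10 ± 2.02 CPM (SD, n = 3), a 10.1-fold lower level, with a log2 fold change of -3.34 (SE 0.34). Leaving out any single Gracie library gave -3.60 to -3.12.

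In DLM8 the Dicer1 row (ENSMUSG00000041415) held 110, 95 and 92 counts without OMX and 82, 68 and 90 counts with it, or 10.2, 10.4 and 10.7 CPM against 8.10, 6.42 and 9.34 CPM. Each OMX library lay below each untreated library, but the gap was narrow and the OMX libraries spread more widely. The mean went from 10.4 ± 0.24 to 7.95 ± 1.47 CPM (SD, n = 3), which is a log2 fold change of -0.39 (SE 0.25) that was not called. The response of Dicer1 in DLM8 minus that in Gracie was 2.95 on the log2 scale (SE 0.42), and 2.73 to 3.21 without any single library of the 12.

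In Gracie only 9 of the 10423 genes tested had a lower log2 fold change than DICER1, and these were 9 of the 840 genes called lower. Among the 4068 genes at least as abundant as DICER1, 3 had a lower value. Since DICER1 was chosen with these values known, its rank is a description. In DLM8, 5217 of 17109 genes lay below Dicer1. A ratio of rows within a library does not depend on the scaling of the libraries. The ratio of DICER1 to DROSHA counts in Gracie was 1.28, 1.25 and 0.812 without OMX and 0.0752, 0.164 and 0.143 with it, 2 groups that lay wide apart. In DLM8 the same ratio was 0.233, 0.301 and 0.288 without OMX and 0.264, 0.230 and 0.359 with it, and the groups overlapped. The ratio of DICER1 to TARBP2 counts, of the nuclease to its partner, went from 1.51 ± 0.844 to 0.127 ± 0.0172 in Gracie and from 0.728 ± 0.136 to 0.516 ± 0.0822 in DLM8 (SD, n = 3).

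**Figure D1:**
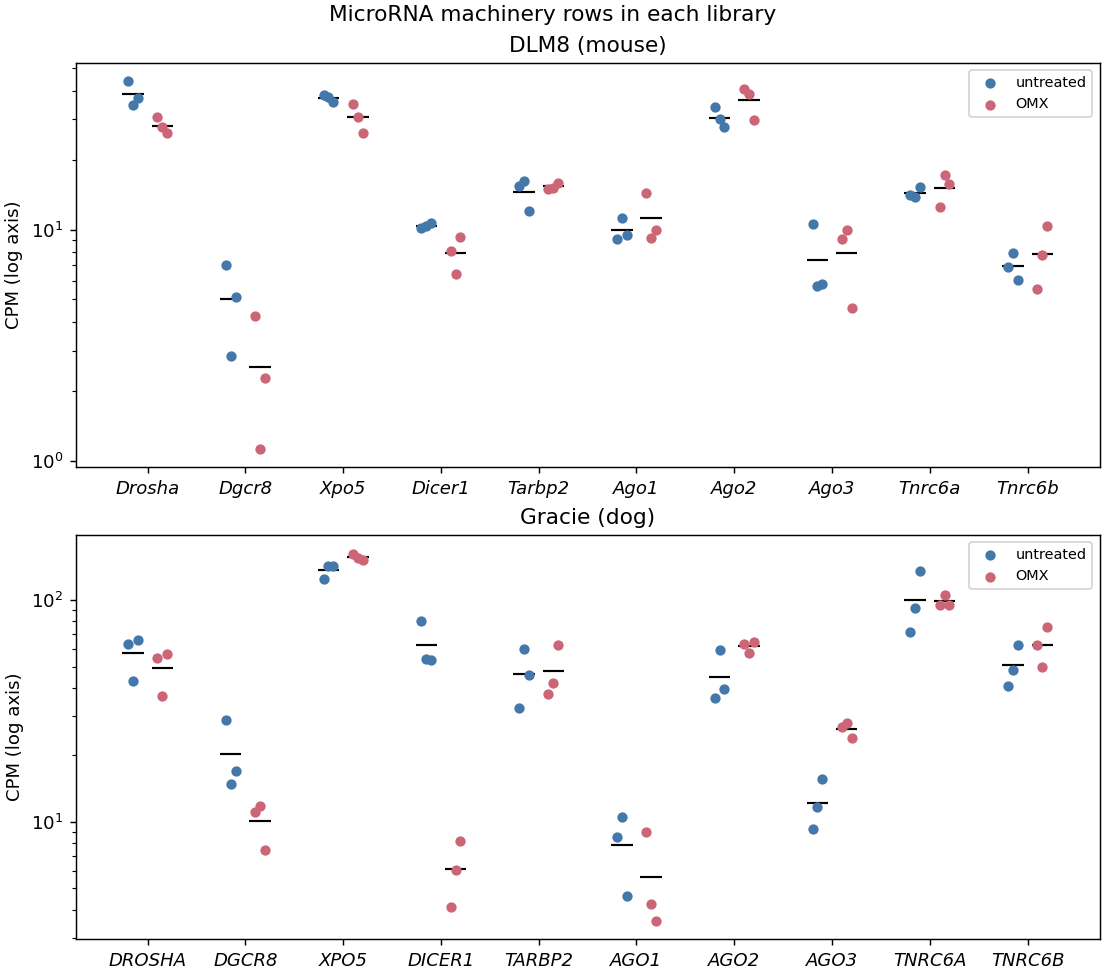
Level of each microRNA machinery row in each library, in CPM on a log axis, for DLM8 (top) and Gracie (bottom). Points are libraries (3 untreated in blue, 3 OMX in red) and short lines are group means. In Gracie the OMX points of DICER1, at 4.11 to 8.15 CPM, sit far below the untreated points at 53.4 to 80.5 CPM, while AGO3 sits higher with OMX.

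At the nuclear step both Microprocessor subunits had negative log2 fold changes in both lines. None of these was called in the main fit, and the overlap of the groups differed. Drosha in DLM8 was at 43.8, 34.6 and 37.1 CPM without OMX and at 30.7, 27.9 and 26.1 CPM with it. The groups did not overlap, and the mean went from 38.5 ± 4.76 to 28.2 ± 2.34 CPM (SD, n = 3), which is a log2 fold change of -0.45 (SE 0.17). It was not called, though it was with upper-quartile scaling, with the replicate number as a block and without OMX library 1 (log2 fold change -0.53 to -0.36 without any single library). In Gracie DROSHA was at 63.1, 43.2 and 65.8 CPM without OMX and 54.6, 36.9 and 57.0 CPM with it. These groups overlapped, and the log2 fold change was -0.21 (SE 0.26).

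Dgcr8 was low in DLM8, with 76, 26 and 44 counts in the untreated libraries and 43, 12 and 22 in the OMX libraries. Library 2 was the lowest of each group, so the groups overlapped in CPM (7.06, 2.85 and 5.11 against 4.25, 1.13 and 2.28), with a log2 fold change of -0.97 (SE 0.51). It was called without OMX library 1 (-1.57), and ranged from -1.57 to -0.63 without any single library. In Gracie DGCR8 was at 28.7, 14.8 and 17.0 CPM without OMX and at 11.1, 11.8 and 7.49 CPM with it. These groups did not overlap, and the mean went from 20.2 ± 7.44 to 10.1 ± 2.31 CPM (SD, n = 3). The log2 fold change of -0.99 (SE 0.41) was not called. The difference of both responses was 0.02 (SE 0.83).

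In the mouse annotation Dgcr8 overlaps Trmt2a, a tRNA methyltransferase gene on the opposite strand, over 825 exonic bases. The Trmt2a row held 35.9 times the counts of Dgcr8 in DLM8 and went from 189 ± 15.6 to 84.8 ± 15.3 CPM (SD, n = 3). This was a log2 fold change of -1.16 (SE 0.15, edgeR-adjusted p = 0.00013). An edgeR-adjusted p, here and below, comes from the quasi-likelihood test and is adjusted by Benjamini-Hochberg across a line. In Gracie TRMT2A went from 219 ± 12 to 84.9 ± 9.49 CPM, a log2 fold change of -1.37 (SE 0.20, edgeR-adjusted p = 0.000309). The ratio of DGCR8 to TRMT2A counts was 0.0262 ± 0.00987 without OMX and 0.0333 ± 0.0262 with it in DLM8, and 0.0931 ± 0.0390 and 0.122 ± 0.0381 in Gracie (SD, n = 3). The groups of this ratio overlapped in both lines. Among the DLM8 OMX libraries the highest Dgcr8 level was in library 1, where Trmt2a was lowest. Among the untreated DLM8 libraries both were highest in library 1 (7.06 and 206 CPM). In Gracie DGCR8 was highest in untreated library 1, where TRMT2A was lowest (209 CPM). It was lowest in OMX library 3, where TRMT2A was highest (95.8 CPM). How far the Dgcr8 rows hold reads of Trmt2a was not tested. Ago2 shares 219 exonic bases with Chrac1, a chromatin remodelling subunit, whose row held 1.71 times the counts of Ago2 in DLM8 and had a log2 fold change of 0.03 (SE 0.15). Dicer1, Drosha, Tarbp2, Ago1, Ago3, Tnrc6a and Tnrc6b face no annotated gene in mouse, and Xpo5 spans an opposite-strand small nuclear RNA gene that touches no exon of it. Positions of dog genes were not used.

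The values of the export factor differed by little, with opposite signs in the 2 lines, and were not called in either. Xpo5 in DLM8 was at 38.1, 37.5 and 35.6 CPM without OMX and 35.0, 30.8 and 26.2 CPM with it. All OMX libraries were below all untreated libraries, by a small margin for OMX library 1, and the log2 fold change was -0.27 (SE 0.17). In Gracie XPO5 was at 124, 142 and 142 CPM without OMX and 162, 154 and 151 CPM with it. Here all OMX libraries were above, with a log2 fold change of 0.20 (SE 0.19) that was 0.07 when libraries were scaled by size alone. The response in DLM8 minus that in Gracie was -0.47 (SE 0.26), and -0.20 with library size alone. Tarbp2, of the double-stranded RNA-binding partner of DICER1, was at 12.1 to 16.3 CPM in the 6 DLM8 libraries and at 32.5 to 62.9 CPM in the 6 Gracie libraries, with overlapping groups and log2 fold changes of 0.07 (SE 0.21) and 0.05 (SE 0.29).

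Among the Argonautes, AGO3 was the member that differed in Gracie. Its row (ENSCAFG00000024682) held 24, 30 and 40 counts without OMX and 65, 92 and 73 with it, or 9.29, 11.7 and 15.5 CPM against 26.7, 27.8 and 23.8 CPM. The groups did not overlap. The mean went from 12.2 ± 3.12 to 26.1 ± 2.09 CPM (SD, n = 3), a 2.14-fold higher level with a log2 fold change of 1.10 (SE 0.34). AGO3 was called higher. That call was lost with library size alone (log2 fold change 0.97) and without untreated library 1, untreated library 2 or any of the 3 OMX libraries, while the value stayed between 0.94 and 1.30. In DLM8 Ago3 was at 10.6, 5.70 and 5.81 CPM without OMX and 9.09, 10.0 and 4.57 CPM with it, overlapping groups with a log2 fold change of 0.09 (SE 0.36). The response in DLM8 minus that in Gracie was -1.01 (SE 0.51).

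AGO2, the slicing Argonaute, was at 36, 59.2 and 39.5 CPM in untreated Gracie cells and at 63.2, 57.8 and 64.8 CPM with OMX. Untreated library 2 lay within the OMX range, and the log2 fold change was 0.46 (SE 0.25). In DLM8 Ago2 was at 33.8, 30.0 and 27.7 CPM without OMX and 40.7, 38.6 and 29.9 CPM with it, also overlapping, with 0.25 (SE 0.18). The ratio of AGO3 to AGO2 counts in Gracie was 0.258, 0.197 and 0.392 without OMX and 0.422, 0.482 and 0.367 with it, so the shift of AGO3 within the pair was smaller than that of AGO3 alone and its groups overlapped. Ago1 was low in both lines, at 9.10 to 14.4 CPM in DLM8 and 3.58 to 10.5 CPM in Gracie, with log2 fold changes of 0.17 (SE 0.26) and -0.50 (SE 0.61) and overlapping groups. Argonaute genes resemble each other in sequence, and how reads with several positions were counted is not given in the sources used here. AGO4, the remaining family member, held 2 counts in all in DLM8, in OMX library 1, and was at 8.94 ± 7.03 and 5.37 ± 3.38 CPM in Gracie (SD, n = 3, edgeR-adjusted p = 0.502).

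The rows of the TNRC6 scaffolds Tnrc6a and Tnrc6b had overlapping groups and were not called. Tnrc6a was at 12.5 to 17.3 CPM in the 6 DLM8 libraries and at 71.6 to 135 CPM in the 6 Gracie libraries, with log2 fold changes of 0.07 (SE 0.22) and -0.02 (SE 0.24). Tnrc6b was at 5.53 to 10.4 CPM and 41.0 to 75.3 CPM, with 0.18 (SE 0.30) and 0.30 (SE 0.25). This overlap held for both genes in both lines. The third family gene, Tnrc6c, which is no member, was at 14.9 ± 2.58 and 15.8 ± 4.29 CPM in DLM8 (edgeR-adjusted p = 0.826) and went from 11.4 ± 6.98 to 26.5 ± 5.90 CPM in Gracie (SD, n = 3, groups not overlapping, edgeR-adjusted p = 0.0685, both).

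In DLM8 0 of the 10 members were called by edgeR at an adjusted p under 0.05, where 35.3% of all genes tested were called (19.4% higher and 15.9% lower). DESeq2 also called 0, and 1 member was under an unadjusted p of 0.05, where 45% of all genes were. The groups of 3 members did not overlap, beside 49% of all genes. In Gracie 2 of 10 were called, AGO3 higher and DICER1 lower, where 20.6% of all genes were called (12.5% higher and 8.06% lower). There 3 members were under an unadjusted p of 0.05 (34.2% of all genes) and the groups of 4 did not overlap (39.7% of all genes). Since the members were chosen with this comparison known, nothing is read from these counts. The median log2 fold change of the members was 0.07 in DLM8 and 0.02 in Gracie, beside 0.02 and -0.01 over all genes tested. Their median size of change, regardless of sign, was 0.22 and 0.38, beside 0.59 and 0.54 over all genes.

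**Figure D2:**
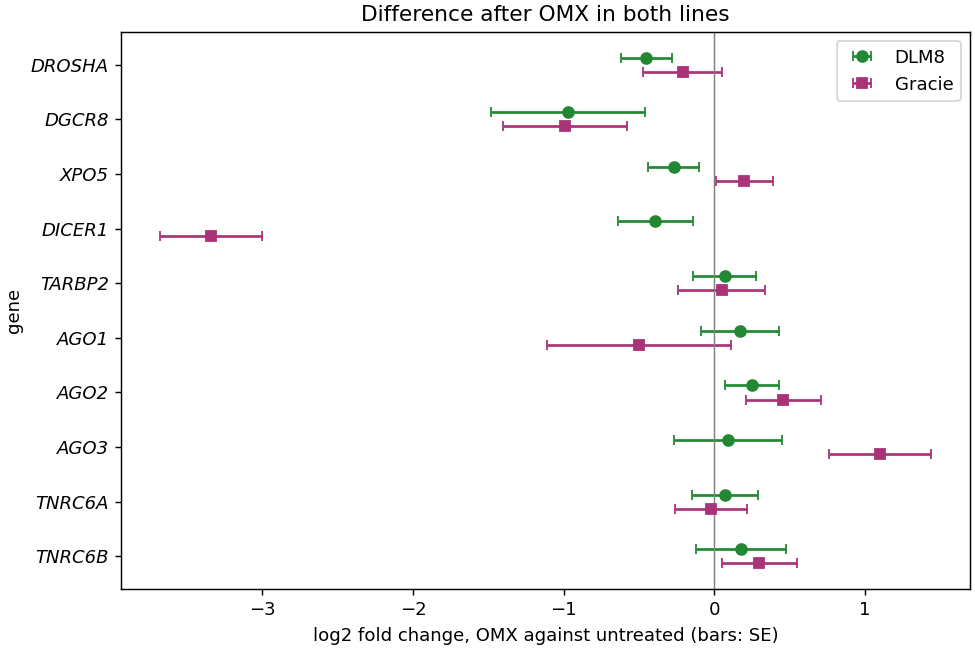
Log2 fold change of each microRNA machinery row after OMX, with bars of 1 SE, for DLM8 (green circles) and Gracie (purple squares). DICER1 in Gracie lies at -3.34 and in DLM8 at -0.39, DGCR8 lies near -1 in both lines, and AGO3 is at 1.10 in Gracie and 0.09 in DLM8.

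Levels of different genes were compared per kilobase of exon, in DLM8 only, with exon lengths of the mouse annotation (GENCODE M21, whose build is not that of the table). In untreated cells Drosha had the highest level of the members, at 6.49 ± 0.802 CPM per kilobase, followed by Xpo5 at 5.40 ± 0.191, Tarbp2 at 3.21 ± 0.491, Ago2 at 2.17 ± 0.221 and Ago1 at 1.22 ± 0.135 (SD, n = 3). Down to Ago1, the libraries of each gene lay below all those of the gene before it. Tnrc6a at 1.13 ± 0.0638 overlapped Ago1, and Dgcr8 at 0.650 ± 0.274 overlapped Dicer1 at 0.623 ± 0.0144 CPM per kilobase. Dicer1 in turn overlapped Ago3 at 0.444 ± 0.168, and Tnrc6b was the lowest member at 0.293 ± 0.0391 CPM per kilobase, just below the Ago3 libraries. By this measure the row of the dicing enzyme was among the low rows of the pathway in untreated DLM8 cells. The lengths take in all annotated exons of a gene, and which of these were transcribed here was not tested. With OMX the per-length levels of Drosha, Xpo5 and Dicer1 were 4.76 ± 0.395, 4.47 ± 0.642 and 0.475 ± 0.0876 CPM per kilobase.

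**Figure D3:**
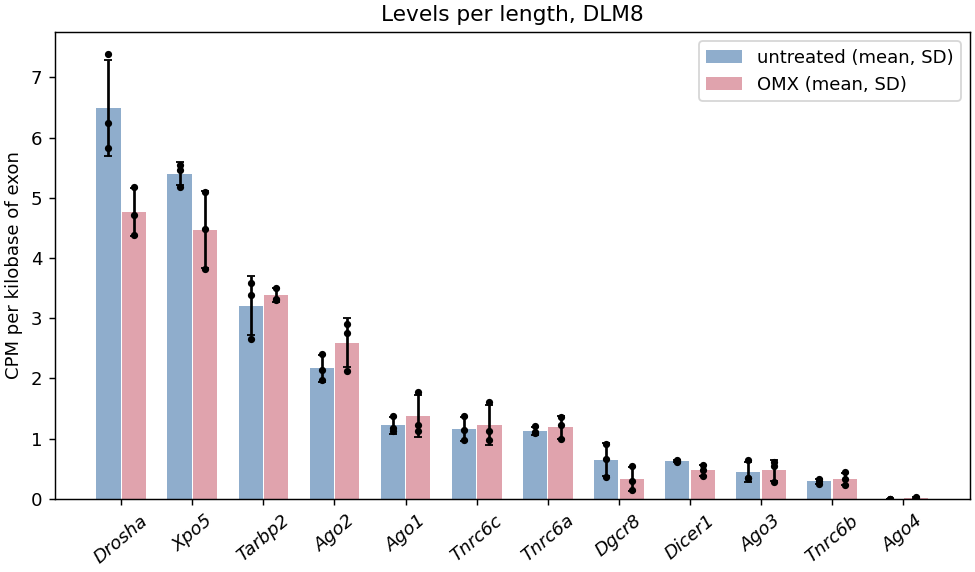
Level per length in DLM8, in CPM per kilobase of exon, for the 10 machinery genes and the family genes Tnrc6c and Ago4. Bars are means, error bars are SD, and points are the 3 libraries of each condition. Drosha and Xpo5 are highest, at 6.49 and 5.40 CPM per kilobase without OMX, and Dicer1 is at 0.623.

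Across all 12 libraries, with log2 CPM centred within each line, the 5 genes whose pattern was most like that of DICER1 among 7565 shared genes were AP2A1 (Pearson r = 0.968), SLC20A1 (0.967), FURIN (0.959), MTRES1 (0.950) and HAUS1 (0.949). They encode a clathrin adaptor subunit, a phosphate transporter, a proprotein convertase, a mitochondrial RNA-binding factor and a subunit of the augmin complex at spindle microtubules. The points share libraries and the treatment, so this is a description. Each gene had a more negative log2 fold change in Gracie (-0.58, -1.43, -1.25, -2.34 and -1.46, in that order) than in DLM8 (-0.05, -0.10, -0.44, -0.08 and -0.36). All 5 values in Gracie were smaller in size than the -3.34 of DICER1. Among the members, r with DICER1 was lowest for AGO3 (-0.80) and AGO2 (-0.71) and highest for DGCR8 (0.55).

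Around the members, 6 lists of other pathway genes were tested. Of 126 genes in DLM8, 20 were called higher and 35 lower (43.7%, beside 35.3% of all genes), with a median log2 fold change of -0.15. With library size alone 24 were higher and 25 lower. Of 112 genes in Gracie, 17 were higher and 10 lower (24.1%, beside 20.6% of all genes), with a median of 0.03. Among the 110 genes tested in both, 14 were called in both lines, which is 27.5% of the 51 DLM8 calls and 51.9% of the 27 Gracie calls. Of the same 110 genes, 46.4% were called in DLM8 and 24.5% in Gracie, so these shares lie near what was called over the list as a whole. Of the 14, 7 were higher in both, 6 were lower in both, and PAN2 was called in opposite directions. Rises and falls below are on the log2 scale. Of the genes chosen as examples, 12 of 31 in DLM8 and the mouse counterparts of 8 of 24 in Gracie face an annotated gene on the opposite strand, among them Khsrp, Rangap1, TARDBP, NCBP2 and GEMIN4, and these are the more uncertain.

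**Figure D4:**
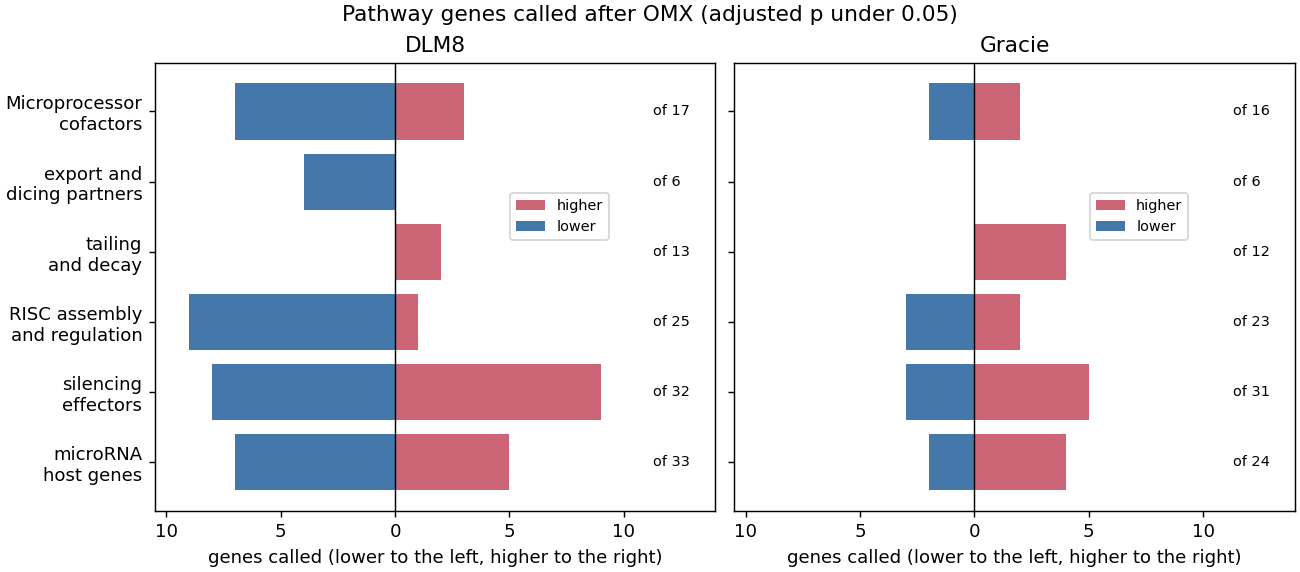
Number of genes called lower (blue, to the left) and higher (red, to the right) after OMX in each list of microRNA pathway genes, for DLM8 and Gracie. The number tested stands at the right of each row. In DLM8 the RISC assembly list has 9 lower and 1 higher of 25, and in Gracie the tailing and decay list has 4 higher of 12. Over all genes tested 35.3% were called in DLM8 and 20.6% in Gracie.

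Of 17 Microprocessor cofactors in DLM8, 3 rose, 7 fell and 7 were not called (58.8% called, beside 35.3% of all genes). Khsrp, a protein that binds the loop of let-7 precursors, fell from 72.7 ± 7.71 to 34.3 ± 4.87 CPM (SD, n = 3, log2 fold change -1.08, SE 0.17, edgeR-adjusted p = 0.000365). Hnrnpa2b1, an RNA-binding protein known to promote processing of primary microRNAs, fell by 0.74 in log2 (SE 0.13, edgeR-adjusted p = 0.00108). Adar, an RNA-editing enzyme, rose by 1.09 (SE 0.25, edgeR-adjusted p = 0.00484), and the Chrnb2 row that faces it was 23.2 times as high in counts and rose by 1.17 (SE 0.12). In Gracie, 2 of 16 cofactors rose and 2 fell (25% called, beside 20.6% of all genes). TARDBP, an RNA-binding partner of both nucleases, fell from 77.6 ± 9.54 to 28.5 ± 1.95 CPM (SD, n = 3, log2 fold change -1.45, SE 0.23, edgeR-adjusted p = 0.000753). NCBP2, a subunit of the nuclear cap-binding complex, fell by 0.78 (SE 0.19, edgeR-adjusted p = 0.0095), while NCBP1, its other subunit, rose from 238 ± 62.1 to 428 ± 75.8 CPM (SD, n = 3, log2 fold change 0.85, SE 0.22, edgeR-adjusted p = 0.016). The NCBP1 call was lost without OMX library 1 (0.69, edgeR-adjusted p = 0.0783), OMX library 2 (0.86, 0.0636), untreated library 2 (0.76, 0.0932) or untreated library 3 (0.69, 0.0632). The other rise was SAFB, a scaffold attachment factor, at 0.81 (SE 0.23, edgeR-adjusted p = 0.0222), lost without OMX library 1 (0.63, 0.0956), OMX library 2 (0.88, 0.0574) or untreated library 2 (0.78, 0.0834).

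Among 6 export and dicing partners in DLM8, 4 fell and 2 were not called (66.7% called, beside 35.3% of all genes). Ran, the GTPase that exportin-5 needs, fell from 76.9 ± 3.04 to 36.3 ± 4.02 CPM (SD, n = 3, log2 fold change -1.08, SE 0.15, edgeR-adjusted p = 0.000199). Rangap1, which stimulates GTP hydrolysis by Ran, fell by 0.60 (SE 0.15, edgeR-adjusted p = 0.00967). In Gracie edgeR called 0 of 6 at an adjusted p under 0.05 (20.6% of all genes), and 2 were under an unadjusted p of 0.05 (34.2% of all genes). Prkra, the other double-stranded RNA-binding partner of DICER1, was at 4.17 ± 0.790 and 2.29 ± 0.468 CPM in DLM8 (edgeR-adjusted p = 0.12) and at 7.75 ± 2.31 and 13.1 ± 1.67 CPM in Gracie (edgeR-adjusted p = 0.266, SD, n = 3), and was not called in either.

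Of genes for tailing and decay of small RNAs, 2 of 13 rose in DLM8 and 4 of 12 in Gracie, and 0 fell by edgeR in either, with 3 and 5 under an unadjusted p of 0.05 in any direction. The shares called were 15.4% and 33.3%, beside 35.3% and 20.6% of all genes. Zc3h12a (Regnase-1), an endoribonuclease known to cut terminal loops of microRNA precursors, rose in both. It went from 9.36 ± 4.12 to 41.0 ± 6.67 CPM in DLM8 (SD, n = 3, log2 fold change 2.12, SE 0.28, edgeR-adjusted p = 0.00013) and from 8.80 ± 5.54 to 51.6 ± 6.96 CPM in Gracie (log2 fold change 2.55, SE 0.40, edgeR-adjusted p = 0.000562). Other Gracie rises were DIS3L2, the exonuclease for uridylated RNA, at 1.58 (SE 0.38, edgeR-adjusted p = 0.00971), and XRN1, the cytoplasmic 5′ exonuclease, at 2.06 (SE 0.51, edgeR-adjusted p = 0.0115). DIS3L2 was not called without OMX library 1 (1.32, edgeR-adjusted p = 0.0575) or OMX library 2 (1.52, edgeR-adjusted p = 0.0523), nor XRN1 without OMX library 3 (1.75, edgeR-adjusted p = 0.0876).

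The list of RISC assembly and regulation holds the chaperones that open Argonaute for loading. In DLM8 1 of 25 rose, 9 fell and 15 were not called (40% called, beside 35.3% of all genes). The falls included Hspa8, of the constitutive HSP70 chaperone, from 303 ± 28.0 to 127 ± 13.5 CPM (SD, n = 3, log2 fold change -1.26, SE 0.13, edgeR-adjusted p = 1.99e-05), Hsp90ab1 at -0.96 (SE 0.11, edgeR-adjusted p = 5.71e-05) and the co-chaperone Fkbp4 at -1.45 (SE 0.18, edgeR-adjusted p = 7.48e-05). The rise was Ajuba, a LIM-domain protein that binds Argonaute, from 9.96 ± 3.19 to 58.7 ± 16.5 CPM (log2 fold change 2.55, SE 0.26, edgeR-adjusted p = 1.96e-05). In Gracie 2 of 23 rose, 3 fell and 18 were not called (21.7% called, beside 20.6% of all genes). HSPA8 fell by 1.09 (SE 0.22, edgeR-adjusted p = 0.00369), GEMIN4, a component of Argonaute complexes, fell by 1.35 (SE 0.32, edgeR-adjusted p = 0.00812), and AJUBA rose by 1.48 (SE 0.28, edgeR-adjusted p = 0.00238).

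Of 32 silencing effectors in DLM8, 9 rose, 8 fell and 15 were not called, and of 31 in Gracie 5 rose, 3 fell and 23 were not called. The shares called were 53.1% and 25.8%, beside 35.3% and 20.6% of all genes. Pabpc1, the poly(A)-binding protein that TNRC6 contacts, fell in both lines, by 1.28 in DLM8 (SE 0.13, edgeR-adjusted p = 1.8e-05) and by 0.78 in Gracie (SE 0.17, edgeR-adjusted p = 0.00584). Cnot4, a ubiquitin ligase of CCR4-NOT, rose in both, by 1.33 (SE 0.21, edgeR-adjusted p = 0.000422) and 1.5 (SE 0.23, edgeR-adjusted p = 0.00058). Btg2, which stimulates the deadenylases, rose in DLM8 from 1.30 ± 0.605 to 9.57 ± 1.04 CPM (SD, n = 3, log2 fold change 2.85, SE 0.40, edgeR-adjusted p = 0.000183). The related BTG1 rose in Gracie from 16.6 ± 5.44 to 47.7 ± 6.93 CPM (log2 fold change 1.53, SE 0.30, edgeR-adjusted p = 0.00317). In Gracie BTG2 was at 3.62 ± 1.80 and 12.4 ± 6.31 CPM (log2 fold change 1.76, SE 0.61, edgeR-adjusted p = 0.0577), and its response in DLM8 minus that in Gracie was 1.09 (SE 0.72, edgeR-adjusted p = 0.359). Btg1 in DLM8 was at 6.05 ± 1.54 and 5.67 ± 0.344 CPM (edgeR-adjusted p = 0.832). Cnot7, a CCR4-NOT deadenylase, fell by 1.60 in DLM8 (SE 0.32, edgeR-adjusted p = 0.00229), where the facing Zdhhc2 row held 13.3 times its counts and fell by 1.14 (SE 0.13).

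The row of PAN2, the catalytic subunit of the PAN2-PAN3 deadenylase, differed in opposite directions. In Gracie it held 1206, 949 and 840 counts without OMX and 338, 424 and 314 with it, going from 387 ± 72.6 to 123 ± 18.8 CPM (SD, n = 3, log2 fold change -1.65, SE 0.21, edgeR-adjusted p = 0.000145). In DLM8 it held 67, 49 and 35 counts without OMX and 83, 123 and 117 with it, going from 5.22 ± 1.08 to 10.7 ± 2.14 CPM (log2 fold change 1.02, SE 0.29, edgeR-adjusted p = 0.0161). The DLM8 call was lost without untreated library 3 (0.86, edgeR-adjusted p = 0.0669), OMX library 2 (0.94, 0.0696) or OMX library 3 (0.90, 0.0641). The groups did not overlap in either line. In untreated cells the CPM of the PAN2 row was thus far higher in Gracie than in DLM8. The tables differ in species and annotation, and CPM are not scaled by gene length, so this does not compare levels of mRNA. PAN3, its partner, was at 14.7 ± 8.63 CPM in Gracie and 20.2 ± 3.45 CPM in DLM8 (SD, n = 3). Whether the dog row reports PAN2 mRNA was not tested. The difference of responses was 2.67 (SE 0.33, edgeR-adjusted p = 3.64e-05, interaction of line and treatment). Over the 7566 shared genes 12.1% were called in that test, and 14 of the 110 pathway genes were (12.7%), 6 with the DLM8 response above that of Gracie and 8 below. With library size alone these were 9 and 2. The PAN2 difference was called in every refit of that test.

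Of the whole list of microRNA host genes, 5 rose and 7 fell of 33 tested in DLM8, and 4 rose and 2 fell of 24 in Gracie. The shares called were 36.4% and 25%, beside 35.3% and 20.6% of all genes. Those that host the microRNAs shown above are described here. Mest, the imprinted host of miR-335, fell in both lines, by 1.66 in DLM8 (72.3 ± 2.50 to 22.8 ± 2.28 CPM, SD, n = 3, SE 0.16, edgeR-adjusted p = 1.01e-05) and by 1.45 in Gracie (77.4 ± 6.82 to 28.3 ± 2.80 CPM, SE 0.23, edgeR-adjusted p = 0.000703). Copg2, which faces Mest in mouse, held 17.2 and 17.9 times its counts and fell by 1.92 (SE 0.14) and 1.30 (SE 0.18). In DLM8 Pank3, host of miR-103, fell by 0.85 (SE 0.22, edgeR-adjusted p = 0.00981), Copz1, host of miR-148b, fell by 0.85 (SE 0.20, edgeR-adjusted p = 0.00522), Srebf2, host of miR-33, fell by 0.78 (SE 0.17, edgeR-adjusted p = 0.00397), and Col27a1, host of miR-455, rose by 0.94 (SE 0.20, edgeR-adjusted p = 0.0032).

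In Gracie the rises included SLIT3, whose mouse counterpart hosts miR-218, at 1.21 (SE 0.23, edgeR-adjusted p = 0.00233), and HUWE1, whose mouse counterpart hosts let-7f and miR-98, at 0.59 (SE 0.19, edgeR-adjusted p = 0.038). COPZ2, whose mouse counterpart hosts miR-152, fell by 0.85 (SE 0.24, edgeR-adjusted p = 0.0214). The HUWE1 call was lost with library size alone (0.46), with no filter (0.57) and without each Gracie library except untreated library 1 (0.52 to 0.60, adjusted p 0.0749 to 0.143). The COPZ2 call was lost without OMX library 2 (-0.82, edgeR-adjusted p = 0.0992), OMX library 3 (-0.64, edgeR-adjusted p = 0.0776) or untreated library 2 (-0.89, edgeR-adjusted p = 0.0665). Whether the dog genes hold the same microRNAs was not checked, and a host gene's row does not give the level of its microRNA.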

How the data were processed

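Poly(A)-selected RNA of 12 libraries was sequenced. The authors deposited raw counts per gene, as whole numbers, in a mouse and a dog table. The submitters' processing notes name STAR, featureCounts and Subread and the builds CanFam3.1, mm39 and GRCm39, and no versions or settings. Of the sample columns 0 were not mapped to a sample.

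Each line was fitted alone with edgeR 4.0.16 in R 4.3.3. Genes kept by filterByExpr (17109 in DLM8, 10423 in Gracie) were scaled by TMM, and the quasi-likelihood test was adjusted by Benjamini-Hochberg across a whole line. Genes were called at an adjusted p under 0.05. Libraries of a group varied by a common biological coefficient of 0.246 (DLM8) and 0.296 (Gracie). The standard error is the size of the log2 fold change over the square root of F. CPM and SD use TMM-scaled library sizes. Responses of the lines were compared as an interaction over 7566 shared symbols. The procedure was tested on simulated data, in which fewer genes changed than were called here. It recovered 30% of 2-fold changes in each line, and 76% (DLM8) and 73% (Gracie) of 4-fold changes. For the difference of responses these shares were 9.62% and 65.1%. False calls numbered 2 in DLM8, 10 in Gracie and 5 for the difference. A gene that was not called may thus still differ.

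Nothing in the labels tells whether replicates came from separate cultures, and the p-values cover only the spread among these libraries, which may be technical. A permutation of 3 against 3 cannot give a p below 0.1. The members and lists were chosen with earlier results of these data known. Named were the 10 members, up to 3 called genes with the smallest p per list, line and direction (5 for host genes), the 3 strongest differences between lines, the 5 genes most like DICER1 and genes facing a member. Named examples are drawn from these, mostly those whose call held without any single library. AGO4, Tnrc6c, Prkra, PAN3, Btg1 and Pan2 in DLM8, BTG2 in Gracie and the bone and lineage markers were named besides. Likeness used log2 CPM with a prior count of 2. Opposite-strand overlap and exon lengths came from GENCODE M21, of another build, so no coordinates are given. Alternatives were other scalings, no filter, DESeq2 1.42.0, halved counts, a replicate block and leaving out each library. Values of some genes are not reported here.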

Additional observations from a re-analysis of the deposited data

Results flagged for a closer look

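The responses of DLM8 and Gracie differed by the interaction test (edgeR's quasi-likelihood test, adjusted over 7566 shared genes) for 14 pathway genes, of which 10 are named genes. Values are the log2 response of DLM8 minus that of Gracie. PAN2 had 2.67 (SE 0.33, adjusted p = 3.64e-05) and PPARGC1B, a transcriptional coactivator gene, 3.23 (SE 0.76, adjusted p = 0.00785). BTG1 had -1.63 (SE 0.42, adjusted p = 0.0144). These 3 calls held in every other setting tried. PPARGC1B held 19, 22 and 4 counts in the untreated DLM8 libraries. Within DLM8 its call was lost without OMX library 1 or untreated library 3, and within Gracie it was not called (-1.41, edgeR-adjusted p = 0.0888).

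NCBP1 had -1.17 (SE 0.30, adjusted p = 0.014), which with library size alone was -0.87 (adjusted p = 0.0669). NCBP2, of the other cap-binding subunit, had 0.94 (SE 0.25, adjusted p = 0.0171), which without DLM8 untreated library 2 was 0.89 (adjusted p = 0.0565). EVL had -2.78 (SE 0.77, adjusted p = 0.0223), and it was -2.51 without DLM8 OMX library 2, -2.49 without DLM8 untreated library 2 and -2.31 without Gracie OMX library 2, none of them called. Degs2, which faces Evl in mouse, held 6.37 times its counts in DLM8 and fell by 1.03 (SE 0.19).

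TARDBP had 0.98 (SE 0.28, adjusted p = 0.0276) and DCP1B, of a decapping cofactor, 1.90 (SE 0.55, adjusted p = 0.0296). The DCP1B row held 2, 8 and 8 counts in the untreated DLM8 libraries. SREBF2 had -1.13 (SE 0.34, adjusted p = 0.0337) and HUWE1 -0.80 (SE 0.26, adjusted p = 0.0473). The TARDBP and DCP1B calls were each lost without 6 of the 12 libraries, SREBF2 without 8 and HUWE1 without 10, and the last pair also with library size alone (-0.83 and -0.53).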

How the results depend on the processing

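Over the 30 values of members, 418 of 420 refits moved by less than the spread between libraries. The other 2 were XPO5 in Gracie (0.07) and its difference between lines (-0.20), both with library size alone, which moves the median of all genes by 0.14 in DLM8 and -0.13 in Gracie on the log2 scale. The spread used here was 1 SD between libraries, and leaving out 1 of 3 libraries can hardly move a value by more. The count of 418 is thus no measure of stability. Among values that were not called the sign differed in 34 refits. In DLM8 the count of members called was 1 with upper-quartile scaling and 1 with the replicate block (Drosha in each), and 0 to 2 without any single library, the 2 being Drosha and Dgcr8 without OMX library 1. In Gracie it was 1 with library size alone, DICER1, and 1 to 2 without any single library. DICER1 in Gracie was called in all of these.

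Pathway calls were 39 to 70 in DLM8 and 17 to 33 in Gracie without any single library, the lowest in Gracie being without OMX library 2, and the calls of the difference between lines were 7 to 18. Of 874 refits of 65 pathway values, 101 lost the call and 0 changed sign. Same-numbered OMX and untreated libraries deviated from their group means with correlations of -0.02 to 0.203. Of the 6 numbers, 4 were over 0.1 and best with their own number, a hint from the data, but not all, and the labels tie the numbers to nothing, so they were not taken as pairs. With the replicate block, calls over all genes went from 6037 to 6846 in DLM8 and from 2148 to 2437 in Gracie, and pathway calls were 62 in DLM8 and 32 in Gracie, and 21 for the difference between lines. In DLM8, 22 of 31 named pathway genes kept their call without any single library, and in Gracie 14 of 24. Counts near 10, as for DICER1 with OMX in Gracie, limit the precision of its fold.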

Other observations

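The mouse table also holds 1189 rows named as microRNA genes, of which 1064 had no count in any library and 16 passed the filter. Of these 16, 5 were called higher, 4 lower and 7 were not called by edgeR's quasi-likelihood test (56.2% called, beside 35.3% of all genes in DLM8). The 9 called rows all overlap an exon of a gene on the opposite strand in the mouse annotation, as do 4 of the 7 rows not called and 75 of 987 annotated rows with no count. These rows are not levels of mature microRNAs. The dog table held 0 such rows.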
